A study of Homo sapiens with 3 samples.

Results

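Interferon-high MM.1S cells were the 774 cells with the highest share of interferon-induced transcripts among 3870 cells of an MM.1S monoculture, in a series of 11822 cell barcodes. MM.1S is an established human multiple myeloma line of plasma cell type. Members were chosen by measured values: among monoculture cells with at least 1000 unique molecular identifiers (UMIs, each a counted RNA molecule), the score was the share of a cell's UMIs on IFI27, IFI6, MX1, ISG15, IFI44L, EPSTI1, ISG20, OAS1 and MX2, and members were the top 20%. They were compared with the 1935 cells at or below the median score, called low-score cells here, and 1161 cells lay between. The 9 genes that chose the cells were left out of that comparison.

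The study asked how myeloma and stromal cells act on each other's transcription. It profiled 3 cultures by Drop-seq, in which single cells are captured in droplets with barcoded beads: MM.1S alone, HS-5 (an established human bone marrow stromal line) alone, and both together for 4 h. No culture received a treatment, and no interferon was added. Each condition was 1 library, so no test was made and no difference has a replicate check. The exact 95% intervals given throughout describe counting error and nothing else. Whether the sequenced cells were the parental lines or the study's p65-YFP knock-in derivatives is not given in the sources used here.

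Type I interferons bind the receptor made of IFNAR1 and IFNAR2. The kinases JAK1 and TYK2 then phosphorylate STAT proteins, which join IRF9 and bind interferon-stimulated response elements in promoters. The induced genes encode proteins that block viruses, tag other proteins with ISG15, sense foreign RNA and present antigen on MHC class I molecules. Many cells keep a low level of these transcripts without added interferon.

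The promoters of the score genes are shown because they carry the shared letters of that response element. The element was searched on both strands as GAAA, any 2 bases and GAAA again, from 250 bases before to 50 after each RefSeq start (GRCh38.p14). Matches lay in the promoters of 7 of the 8 score genes that the promoter table holds. OAS1 had no match in its window, and MX2 is not in the table. Of all 27305 genes in the table, 4.38% had a match. Below, 30 bases around a match are printed on the gene's strand, with the match in capitals (TTTC in place of GAAA where it lies on the other strand).
IFI27, chr14:94110631-94110660, plus strand: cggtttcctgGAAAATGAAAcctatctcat
IFI6, chr1:27672288-27672317, minus strand: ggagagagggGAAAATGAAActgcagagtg
MX1, chr21:41420559-41420588, plus strand: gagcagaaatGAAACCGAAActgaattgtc
EPSTI1, chr13:42992272-42992301, minus strand: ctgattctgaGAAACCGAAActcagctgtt
ISG20, chr15:88638937-88638966, plus strand: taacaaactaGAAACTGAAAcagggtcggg
IFI44L, chr1:78620274-78620303, plus strand: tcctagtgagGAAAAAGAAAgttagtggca
HERC5, chr4:88457035-88457064, plus strand: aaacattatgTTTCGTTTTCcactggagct
PARP14, chr3:122680800-122680829, plus strand: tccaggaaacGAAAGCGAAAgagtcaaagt

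ISG15 carried the most score UMIs, and its whole promoter window (chr1:1013247-1013546, plus strand) holds 2 overlapping matches, capitalised as 1 run.
ISG15: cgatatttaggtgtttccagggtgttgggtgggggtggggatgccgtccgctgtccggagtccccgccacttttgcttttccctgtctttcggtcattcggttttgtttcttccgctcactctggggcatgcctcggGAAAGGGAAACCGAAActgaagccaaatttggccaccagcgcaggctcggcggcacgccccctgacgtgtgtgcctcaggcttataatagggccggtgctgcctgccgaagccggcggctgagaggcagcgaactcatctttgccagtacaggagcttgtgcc
HERC5 and PARP14 had the highest ratios in interferon-high cells among genes outside the score with at least 50 CPM, given below. The same 30 bases of IFI44L stand again at chr1:78620365-78620394. A match is a description of letters and not a measured binding site.

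In the genome (GRCh38, GENCODE release 29), the 9 score genes lie apart except MX2 (chr21:41361943-41409390) and MX1 (chr21:41420304-41459214), which are neighbours on the plus strand. The gene models of ISG15 (chr1:1001138-1014540, plus strand), IFI6 (chr1:27666061-27672218, minus strand) and IFI44L (chr1:78619922-78646145, plus strand) share chromosome 1. IFI27 is at chr14:94104836-94116698 and OAS1 at chr12:112906777-112933222, both on the plus strand. The UMI counts are per gene and do not place molecules in exons or introns.

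The score had no gap between cells with and without it. A total of 1420 cells (36.7%) had no UMI of the 9 genes, the median share was 0.048%, the limit of the top 20% was 0.204%, and the highest cell reached 3.78%. The 3 cells just inside the limit had 4 score UMIs of 1958, 5 of 2442 and 6 of 2929. The 3 just outside had 12 of 5899, 6 of 2955 and 7 of 3450. Members are thus the upper range of this score. With 4 to 12 score UMIs in the cells nearest the limit, counting error could hide a gap. Whether members form a separate cluster was not tested. They held 68.6% of the 11887 score UMIs and 16.7% of all UMIs.

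Several of the 9 genes were seen together in most members. At least 4 of them had a UMI in 439 of 774 members (56.7%) and in 3 of 1935 low-score cells (0.155%), while 18 members (2.33%) had UMIs of only 1 gene. These values follow from the rule. By level, ISG15, the ubiquitin-like protein that is attached to other proteins, had 2100 CPM (UMIs of a gene per 1000000 summed UMIs) in members, IFI6 had 923, the exonuclease ISG20 478, IFI27 361 and the antiviral GTPase MX1 350. EPSTI1 had 158 CPM, IFI44L 139, the 2-5A synthetase OAS1 116 and MX2 101. In low-score cells the 9 genes ranged from 1.43 CPM (IFI44L) to 39.8 CPM (ISG15). With each cell thinned to 1000 UMIs, 76.7% of members had an ISG15 UMI, 52.6% an IFI6 UMI and 24.9% an IFI27 UMI (92.0%, 71.1% and 34.0% before thinning).

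A gene that helps to choose cells must be high in them, so each score gene was also compared between cells ranked by the other 8. IFI27 then had the highest CPM ratio of the top 20% over low-score cells, 40.9 (95% interval 29.9 to 57.1). IFI44L followed at 37.8 (23.4 to 65.1), and the intervals of both overlap. ISG15 was at 14.6 (13.4 to 15.9) and IFI6 at 12.9 (11.5 to 14.7). OAS1 had the lowest ratio, 5.10 (4.01 to 6.52). All 9 genes were higher in cells that the other 8 had picked.

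The 9 genes were also read on UMIs that had not chosen the cells. Each cell's UMIs were split at random into 2 equal parts, and cells were chosen on 1 part. On the other part the 9 genes together had 4175 CPM in 774 chosen cells and 308 CPM in 1979 low-score cells, a ratio of 13.6 (12.6 to 14.7). On the part that chose them, the same cells had 4843 CPM and, by the rule, 0 CPM. With all UMIs used both to choose and to measure, the ratio was 43.0.

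IFI27 was not seen in every member, and at these depths a count of 0 does not show that the gene was off. The 263 members with an IFI27 UMI had 1246 CPM of IFI6, and the 511 without had 735 (ratio 1.69, 1.53 to 1.87). For ISG15 the ratio was 1.20 (1.12 to 1.28) and for IFI44L 1.34 (1.03 to 1.74), while the intervals of MX1, EPSTI1, ISG20, OAS1 and MX2 included 1. These genes share the sum that chose the cells, so their values are a description. Outside the score, type I interferon genes had 6438 CPM with an IFI27 UMI and 5933 without (ratio 1.09, 1.04 to 1.13). The median depth was 1971 UMIs in the first set and 1801 in the second.

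Outside the score, the wider type I interferon response was higher in members. Its 68 listed genes together had 6119 CPM (6002 to 6236) in members and 2659 CPM (2617 to 2702) in low-score cells, a ratio of 2.30 (2.24 to 2.36). Of the 34 genes with at least 20 CPM over both sets of cells, 28 were at least 1.5-fold higher and 0 at least 1.5-fold lower, with a median log2 ratio of 1.27. Over all 5235 genes at that level, 4.22% were at least 1.5-fold higher, 6.99% at least 1.5-fold lower, and the median was -0.06. Some genes reached 20 CPM only through members, so the sum and not the count carries this comparison. Without that minimum, 66 of the 68 genes had a ratio above 1, and the intervals of 55 lay above 1 and of 0 below 1.

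Several antiviral genes were at or near the top of that list. At 20 CPM or more the 5 highest ratios were those of IFIT1, OASL, IFIT3, PARP9 and HERC5, each under 20 CPM in low-score cells. IFIT1, which binds RNA lacking the host's cap methylation, had 143 UMIs in members and 12 in low-score cells, a ratio of 38.7 (21.5 to 76.7). OASL was at 18.3 (12.1 to 28.7), IFIT3 at 17.7 (11.7 to 27.8), PARP9 at 16.0 (11.1 to 23.5) and HERC5, the ligase that attaches ISG15, at 10.3 (8.16 to 13.1). UBE2L6, the conjugating enzyme that acts with HERC5, had 213 CPM in members and 62.9 in low-score cells (ratio 3.38). BST2 (tetherin), which holds virus particles at the cell surface, was already at 450 CPM in low-score cells and had 801 CPM in members (ratio 1.78, 1.67 to 1.903). On the other part of the UMIs IFIT1 was at 20.4 (10.08 to 46.5), OASL at 10.5 (6.16 to 18.8) and PARP9 at 8.59 (5.35 to 14.3). Below 20 CPM, TRIM22 (58 UMIs against 4) was at 47.1 (17.4 to 179). The lowest ratios at 20 CPM were TRIM14 at 1.14 (0.834 to 1.54), NT5C3A at 1.25 (1.01 to 1.55) and LY6E at 1.36 (1.10 to 1.69), and under that level TOR1B was at 0.905 (0.537 to 1.47) and IFITM3 had 0 UMIs in members and 3 in low-score cells. The interval of NT5C3A included 1 within bands of depth (0.960 to 1.44). IFIT, OAS and MX genes have related copies, and the counting could split their reads.

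The signal's own components differed less than its targets, except the factors that are themselves induced. No interferon ligand reached 20 CPM: the 10 ligand genes listed together had 8 UMIs in members and 25 in low-score cells, and a ligand UMI was seen in 7 of 774 members (0.904%, 0.364 to 1.85%) and in 20 of 1935 low-score cells (1.03%, 0.632 to 1.59%). The receptor and kinase genes together had a ratio of 0.990 (0.905 to 1.08), with IFNAR1 at 0.869 (0.713 to 1.05), IFNAR2 at 0.669 (0.468 to 0.936) and JAK1 at 1.08 (0.940 to 1.23). IFNAR2 was at 0.747 (0.543 to 1.01) with members chosen within bands of depth, at 0.887 (0.524 to 1.45) on the other part of the UMIs and at 1.15 (0.542 to 2.48) in cells with few cycle UMIs, a subset described below. TYK2, under 20 CPM, was at 1.54 (1.04 to 2.23), and at 1.26 (0.846 to 1.84) within bands of depth. IRF7, the factor that amplifies interferon production, was at 3.20 (2.48 to 4.13), and STAT2, under 20 CPM, at 2.59 (1.83 to 3.66). IRF9 was not analysed here. IRF2, which opposes the response, was at 0.963 (0.766 to 1.20).

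Sensors of foreign nucleic acid were unequal. The RNA sensors DDX58 (RIG-I; 36 UMIs against 16) and IFIH1 (MDA5) had ratios of 7.31 (3.96 to 14.1) and 2.87 (2.32 to 3.56), the kinase EIF2AK2 (PKR) 2.49 (2.17 to 2.84), and the RNA-editing enzyme ADAR 1.66 (1.39 to 1.97). The DNA sensor MB21D1 (cGAS) was at 0.940 (0.771 to 1.14) and the kinase TBK1 at 0.787 (0.573 to 1.06). RNASEH2A, a subunit of the enzyme that removes RNA from DNA, was at 0.624 (0.484 to 0.797), and at 0.847 (0.684 to 1.04) within bands of depth. On the other part of the UMIs DDX58 was at 3.48 (1.61 to 7.62).

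Transcripts of MHC class I and its loading were moderately higher as a sum. The 22 genes together had 18299 CPM in members and 13785 in low-score cells, a ratio of 1.33 (1.31 to 1.35). Only HLA-E among the 18 genes at 20 CPM passed 1.5-fold (332 against 164 CPM, ratio 2.03, 1.82 to 2.25). That count, 1 higher and 0 lower, was near the shares of all genes, 4.22% and 6.99%. The list's median log2 ratio was 0.22. B2M, the light chain of every class I molecule, held most of the sum, with 12163 against 8621 CPM (1.41, 1.39 to 1.43). HLA-B and HLA-C, whose reads are alike, were at 1.36 and 1.41. The immunoproteasome subunits PSMB9 and PSMB8 were at 1.35 (1.16 to 1.57) and 1.26 (1.09 to 1.46). The chaperones CALR and CANX, in the same list, were lower, at 0.808 (0.721 to 0.905) and 0.756 (0.708 to 0.807). The invariant chain CD74 of MHC class II was at 1.92 (1.504 to 2.45).

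Genes led by interferon gamma were few at this depth. APOL2 was at 1.85 (1.32 to 2.58) and CASP1 at 1.72 (1.30 to 2.26), while ICAM1 was at 0.963 (0.741 to 1.24). APOL2 had 18.2 CPM in low-score cells and reached 20 CPM only through members. The chemokine CXCL10 had 44 UMIs in members and 21 in low-score cells (ratio 6.81, 3.96 to 12.1). Among NF-kB targets, 5 of 13 genes at 20 CPM were at least 1.5-fold higher and 1 at least 1.5-fold lower, with a median log2 ratio of 0.10, against 4.22% and 6.99% of all genes at that level. In cells with few cycle UMIs 2 of 11 were higher and 2 lower, without a share of all genes in that subset to set beside them. The chemokine CCL5 was at 3.38 (2.89 to 3.96), the death ligand TNFSF10 (TRAIL) at 2.71 (1.97 to 3.72) and CYLD at 1.92 (1.44 to 2.54), whereas GADD45B was at 0.646 (0.428 to 0.949). Within bands of depth TNFSF10 had 16.3 CPM in low-score cells and 35.8 CPM in members, so members helped it reach 20 CPM.

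Among genes with at least 50 CPM, the contrast had more lower than higher genes. Of 2729 such genes outside the score, 74 (2.71%) were at least 1.5-fold higher in members and 172 (6.30%) at least 1.5-fold lower. With no minimum level the order turned, at 5982 higher and 5475 lower genes. It also turned in cells with few cycle UMIs, at 153 higher and 92 lower. Type I interferon genes made up 14 of the 74. The 10 highest included HERC5, PARP14 (5.44, 4.48 to 6.62), RABGAP1L (3.62, 3.06 to 4.30), HIST1H2AC (3.45, 2.88 to 4.13), SP110, UBE2L6, CCL5, SAMD9L and HIST1H2BD (2.88, 2.39 to 3.46). At 1000 UMIs per cell, a HERC5 UMI was found in 12.3% of members (10.04 to 14.8%) and 1.76% of low-score cells (1.22 to 2.45%), or 22.1% and 4.81% before thinning.

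Proliferation genes were lower in members. All 10 of the lowest ratios belonged to genes of chromosome segregation and mitosis: CCNB1 (cyclin B1), CENPW, HMMR, TOP2A, CDCA8, BIRC5 (survivin), GTSE1, CENPF, PTTG1 (securin) and NUF2. CCNB1 had 33.6 CPM in members and 138 in low-score cells (0.243, 0.183 to 0.317), and TOP2A had 60.3 and 212 CPM (0.284, 0.230 to 0.347). The S phase list had 2027 CPM in members and 3836 in low-score cells (ratio 0.528, 0.510 to 0.548), with 32 of 36 genes at least 1.5-fold lower. The G2/M list had 2753 and 5842 CPM (0.471, 0.457 to 0.486), with 39 of 44 at least 1.5-fold lower. Over all 5235 genes with at least 20 CPM, 6.99% were at least 1.5-fold lower. At 1000 UMIs per cell, TOP2A was seen in 4.01% of members (2.74 to 5.64%) and 12.5% of low-score cells (11.1 to 14.1%).

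Depth moved with this contrast. Members had a median of 1859 UMIs and 928.5 genes, and low-score cells 2438 UMIs and 1164 genes, and cells with at least 10 S phase and G2/M UMIs per 1000 were the deepest, with a median of 3025. When members and low-score cells were chosen within 10 bands of depth, with medians of 2234 and 2229.5 UMIs, the S phase ratio was 0.610 and the G2/M ratio 0.602, and the genes at least 1.5-fold lower numbered 96 in place of 172. The type I interferon ratio was 2.16 (2.11 to 2.21) there. Each of the 10 highest and 10 lowest genes kept an interval on its side of 1.

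The score also ran across the cell cycle. Among cells with at most 1 S phase or G2/M UMI per 1000, 33.9% (30.6 to 37.4%) were members. The share was 22.9% (21.0 to 24.9%) among cells with 2 to 9 and 7.51% (6.12 to 9.09%) among cells with 10 or more. Among the 261 members and 258 low-score cells with at most 1 such UMI, the type I interferon ratio was 2.47 (2.32 to 2.64) and HERC5 was at 9.17 (4.60 to 20.8). In these cells HIST1H2BD was at 1.16 (0.880 to 1.54) and its interval included 1, while the other 9 of the 10 highest genes had intervals above 1. The NF-kB list as a whole was at 1.40 (1.33 to 1.49) over all cells and at 1.11 (0.969 to 1.27) in these. CALR was at 1.11 (0.837 to 1.48) there, CD74 at 3.24 (1.85 to 5.95), CXCL10 at 2.80 (0.830 to 12.1), CYLD at 1.36 (0.661 to 2.85), APOL2 at 1.53 (0.696 to 3.48), STAT2 at 1.83 (0.941 to 3.71), RNASEH2A at 0.891 (0.275 to 2.81) and HPRT1 at 0.966 (0.599 to 1.56). The 10 lowest genes had at most 7 UMIs each in either group of this subset, too few to place them. This subset was chosen after seeing the data.

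Along the score, both patterns were graded. The type I interferon list outside the score had 2547 CPM in the 1420 cells with no score UMI, 3281 in cells between the median and the 60th percentile, 5110 between the 80th and 90th, and 8350 (8072 to 8635) in the top 5%. The S phase list went from 3758 to 1589 CPM and the G2/M list from 5541 to 2002 CPM between the first and last of these bands. The second band, cells with a score above 0 up to the median, had the most UMIs per cell (median 3288) and the highest G2/M level, 6350 CPM.

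Members held the markers of their line. The 10 MM.1S markers summed to 13112 CPM in members and 10392 in low-score cells, against 211 in HS-5 monoculture, and none was at 0. JCHAIN, which joins immunoglobulin polymers, had 8506 and 5946 CPM (1.43, 1.40 to 1.46), and SDC1 (syndecan-1) had 37.1 and 38.7 CPM, below its 135 CPM in HS-5 monoculture, so it did not tell the lines apart here. TNFRSF17 (BCMA), a survival receptor of plasma cells, had 62.0 and 130 CPM (0.478, 0.386 to 0.586). The plasma cell list together had a ratio of 1.22 (1.20 to 1.24), of which JCHAIN held much, and its count was near that of all genes, with 0 of 21 at least 1.5-fold higher and 1 lower against 4.22% and 6.99%. The genes of ER folding and the unfolded protein response together had a ratio of 1.000 (0.986 to 1.01). The 16 HS-5 markers listed in this library summed to 1252 CPM in members and 1331 in low-score cells, against 18354 in HS-5 monoculture. FN1 and CAV1, which members hold at 784 and 428 CPM, made up most of that sum. They had 252 and 356 CPM in HS-5 monoculture, so they did not tell the lines apart here. COL6A1, TAGLN, MMP1 and CTGF were at 0 in members, while COL1A1 (10 UMIs against 5, ratio interval 2.02 to 24.2) and COL1A2 (13 against 4, 3.26 to 44.5) were higher in members, at 5.80 and 7.53 CPM against 498 and 454 CPM in HS-5 monoculture. TAGLN had only 0.326 CPM in HS-5 monoculture, so its 0 does not tell the lines apart. The longer list of HS-5 stromal genes had 6754 CPM in members and 5810 in low-score cells (ratio 1.16, 1.14 to 1.19), most of it S100A6 and LGALS1. The part of HS-5 RNA in these results was not tested, and in no cell did HS-5 genes exceed 0.2 of the UMIs on genes specific to 1 line. Those genes were chosen by their levels in this same library, so a low share follows in large part from the choice. No member's barcode occurred in another library, and 39 to 76 barcodes were shared by each pair of libraries.

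Reference genes were not level between the groups. EEF2 was at 0.967 (0.902 to 1.04), but TUBB was at 0.525 (0.474 to 0.581), GAPDH at 0.589 (0.435 to 0.785) and HPRT1 at 0.612 (0.515 to 0.723), and the list of 20 at 0.875. GAPDH was low in these counts, and within bands of depth it had 36.7 CPM in members and 54.0 CPM in low-score cells. The part of read counting in its level was not tested. Cells over 10% mitochondrial UMIs were 24.0% of members and 13.9% of low-score cells. MT-RNR2, the large mitochondrial ribosomal RNA, was 3.45% of members' UMIs and 2.47% of low-score cells' (ratio 1.40, 1.39 to 1.41), while the 13 protein-coding mitochondrial genes together were at 0.925 (0.917 to 0.933). The part of RNA quality in these results was not tested. Without cells over 10% the S phase median was -0.88.

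The same rule was then applied to cells it had not used. MM.1S cells of the coculture were those where HS-5 genes made up under 0.2 of the UMIs on genes specific to 1 line (63 MM.1S and 164 HS-5 genes), 379 cells with at least 1000 UMIs. Their top 76 cells against 190 low-score cells had a type I interferon ratio outside the score of 1.73 (1.57 to 1.89), an MHC class I ratio of 1.24 (1.17 to 1.32), an S phase ratio of 0.780 (0.703 to 0.865) and a G2/M ratio of 0.658 (0.595 to 0.728). PARP14 was at 3.39 (1.87 to 6.22). Of the 10 highest genes in monoculture, 9 had UMIs there and all 9 had ratios above 1, 4 of them with intervals above 1, and the 10 lowest were all below 1, 4 of them with intervals below 1. At this depth the other intervals included 1. With 1200 coculture cells of at least 500 UMIs, the type I interferon ratio was 1.902 (1.78 to 2.03), the S phase ratio 0.660 (0.607 to 0.717) and the G2/M ratio 0.454 (0.412 to 0.499).

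In HS-5 monoculture the contrast was narrower. There 68.1% of 1802 cells had no score UMI, and the top 361 cells against these 1227 cells had a type I interferon ratio of 1.14 (1.09 to 1.19), an S phase ratio of 0.904 (0.875 to 0.934) and a G2/M ratio of 0.941 (0.924 to 0.959). CCNB1 lay on the other side of 1, at 1.47 (1.29 to 1.68). Depth ran the other way too, with medians of 1855 UMIs in the top HS-5 cells and 1521 in their low-score cells. In MM.1S monoculture these medians were 1859 and 2438. Depth was not matched in HS-5, so its part in the difference between the lines was not tested. The level of the 9 genes over all cells was 1147 CPM (1127 to 1168) in MM.1S monoculture, 904 (828 to 986) in MM.1S cells of the coculture and 219 (206 to 232) in HS-5 monoculture. With each cell thinned to 1000 UMIs, 2 or more score UMIs were found in 25.5% (24.1 to 26.9%), 21.4% (17.4 to 25.8%) and 2.33% (1.68 to 3.14%) of cells. With coculture cells of at least 500 UMIs the level of the 9 genes was 1328 CPM (1262 to 1396), above that of the monoculture, so the order of the MM.1S sets turns with the minimum depth. The MM.1S intervals of that share at 1000 UMIs overlap, and the HS-5 share lies below both. The differences between libraries were not tested, and library and culture cannot be told apart.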

How the data were processed

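Drop-seq counts from 3 libraries were used, 1 per condition. The authors deposited raw whole-number UMI counts for each gene in each barcoded cell. The submitters' processing notes name Cell Ranger 3.0.2, UMI-tools 1.0.0, STAR 2.5.3a, featureCounts 1.6.4 (Subread), SAMtools 1.9 and the build GRCh38. Their order, the annotation and the use of strand are not given in the sources used here. How reads shared by near-identical genes were counted is not given either and could lower histone and HLA levels.

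MM.1S monoculture held 3994 barcodes and 10433182 UMIs (median 2183), HS-5 monoculture 3865 and 6143448 (949), and the coculture 3963 and 3981392 (789). Cells with at least 1000 UMIs were kept, and no doublet caller was run. CPM are summed UMIs of a set of cells per 1000000, and 1 was added before log2 ratios were taken. Gene counts used genes with at least 50 CPM and lists those with at least 20 CPM. Intervals (Poisson, Clopper-Pearson, conditional for ratios) are exact. The 22 gene lists came from general knowledge, and members and lists were chosen with earlier results of these data known.

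The genes named are the 9 score genes, the 10 highest and 10 lowest ratios at 50 CPM, the 5 highest and 3 lowest of the type I interferon list, and the 3 highest and 2 lowest of other lists. Ligand, receptor, sensor and factor genes were also named. Other genes named were chosen after their values were seen, and some genes that the rule picks are not reported here. Python 3.11.15, numpy 2.4.6, scipy 1.17.1, pandas 2.3.3 and matplotlib 3.10.9 were used, and the steps were tested on simulated data. GENCODE release 29 held 97.4% of gene symbols. Protein sequences were not used here, and MX2, CCL5, HIST1H2AC and HIST1H2BD were not matched in the promoter table. Alternatives covered the share of cells called members, the comparison cells, depth, thinning, cell weights, denominators, mitochondrial share, pseudocounts and minimum levels.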

Additional observations from a re-analysis of the deposited data

Results flagged for a closer look

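The summed level of mitochondrial protein-coding genes was slightly lower with the score in MM.1S monoculture and slightly higher in HS-5 monoculture. The log2 ratio of their summed level, top 20% over low-score cells, was -0.11 in MM.1S monoculture and 0.16 in HS-5 monoculture. It was drawn out because the signs differ between the lines, and the difference was not tested. In MM.1S cells of the coculture the ratio was 1.00 (0.960 to 1.05). In MM.1S monoculture 0 of the 13 genes passed 1.5-fold either way. Their median log2 ratio there, -0.10, was near the -0.06 of all genes. In HS-5 monoculture 1 of the 13 was at least 1.5-fold higher. With mitochondrial ribosomal RNA included, all mitochondrial genes in MM.1S monoculture were at 1.10 (1.096 to 1.11). Depth also differed in opposite directions in these 2 libraries.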

How the results depend on the processing

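No paired analysis was possible because each condition is 1 library, and for the same reason none could be left out in turn. Of the alternative values, 37 moved by more than the limit set for them and 125 did not. The type I interferon, MHC class I, S phase and G2/M medians kept their sign under every alternative run, while the NF-kB median of 0.10 became -0.03 in cells of few cycle UMIs and the ER folding median, -0.05, became 0.04 with the top 30%, 0.05 within bands of depth and 0.01 without cells over 10% mitochondrial UMIs. The NF-kB list has no value at 100 CPM. The 74 genes at least 1.5-fold higher became 46 against all other cells, 46 with the score on thinned counts, 455 at a minimum of 10 CPM, 25 at 100 CPM, 5982 with no minimum and 153 in cells with at most 1 cycle UMI per 1000. The 172 lower genes became 272 and 107 with the top 10% and 30%, 95 with thinned scores, 96 within bands of depth, 569 at 10 CPM, 85 at 100 CPM, 5475 with no minimum and 92 in cells of few cycle UMIs. The S phase median of -1.01 became -1.28 and -0.81 with the top 10% and 30%, -0.88 against all other cells, -0.88 at 2000 UMIs, -0.74 thinned, -0.75 within bands of depth, -0.88 without cells over 10% mitochondrial UMIs, -0.89 on the other part of the UMIs and -0.12 in cells of few cycle UMIs, where both groups are alike in cycle by construction. The G2/M median of -1.32 became -1.63 (top 10%), -1.002 (top 30%), -0.99 (2000 UMIs), -0.92 (thinned), -0.83 (bands of depth), -0.98 (100 CPM) and -0.087 (few cycle UMIs). The MHC class I median of 0.22 became 0.51 in cells of few cycle UMIs. The log2 ratio of the score genes on held-out UMIs, 3.76, became 4.29, 3.40 and 2.98 with the top 10%, the top 30% and all other cells. The type I ratio in the coculture, 0.79 on the log2 scale, became 0.99 and 0.64 with the top 10% and 30% and 0.93 at 500 UMIs. The filters on levels and depth change which genes and cells enter, and otherwise the cause was not tested. The type I interferon median stayed between 0.94 and 1.45. The median of all genes moved to -0.11 at 100 CPM, -0.12 with no minimum and 0.03 in cells of few cycle UMIs. The coculture's 379 cells limit what can be seen there. The alternatives on few cycle UMIs, and the other choices of cells and depth tried for the held-out UMIs and the coculture, were chosen after seeing the data.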

Other observations

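Replication-dependent histone transcripts split in interferon-high cells. HIST1H2AC (150 against 43.3 CPM, ratio 3.45), HIST1H2BD (2.88), HIST3H2A (2.06, 1.47 to 2.85) and HIST1H1C (1.72, 1.49 to 1.98) were higher, while HIST1H4C (873 against 1853 CPM, ratio 0.471, 0.446 to 0.497), HIST1H1D (0.399) and HIST1H1E (0.487) were lower. The list's median log2 ratio was 0.78 and its summed ratio 0.658, of opposite sign, because HIST1H4C holds most of the UMIs. Within bands of depth HIST3H2A had 17.9 CPM in low-score cells and 32.4 CPM in members, so members helped it reach 20 CPM there. In cells with at most 1 S phase or G2/M UMI per 1000, HIST1H2AC was at 2.02 (1.46 to 2.83), while the intervals of the other 6 included 1. There HIST1H1C and HIST1H4C were at 1.13 (0.866 to 1.47) and 1.02 (0.829 to 1.27), HIST3H2A at 0.721 (0.364 to 1.40), HIST1H1D at 0.543 (0.199 to 1.36) and HIST1H1E at 0.965 (0.478 to 1.94), so most of the split was not seen in these cells. Histone genes have near-identical copies, so single values are uncertain.

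Of the cell death genes, the BH3-only gene PMAIP1 (NOXA) was at 1.69 (1.40 to 2.04), the survival gene BCL2 at 1.67 (1.33 to 2.09) and BID at 0.614 (0.429 to 0.861). The p53 target list was at 1.14 (1.07 to 1.21), with CDKN1A at 0.760 (0.489 to 1.15) and MDM2 at 0.727 (0.526 to 0.989). At 20 CPM, 0 of its 8 genes were at least 1.5-fold higher and 0 lower, against 4.22% and 6.99% of all genes. The list was at 0.966 (0.846 to 1.10) in cells with few cycle UMIs. MYC had 671 CPM in members and 824 in low-score cells (0.814, 0.762 to 0.868). In cells with few cycle UMIs BCL2 was at 0.989 (0.599 to 1.63), PMAIP1 at 1.56 (0.814 to 3.06), BID at 0.926 (0.353 to 2.402), MDM2 at 1.09 (0.503 to 2.36) and MYC at 1.02 (0.879 to 1.19). Among genes in no list, chosen after their values were seen, the polyamine enzyme SAT1 was at 2.19, the lysosomal protease CTSB at 2.04, the protease inhibitor TIMP1 at 1.92 and GRN at 1.71. In cells with few cycle UMIs they were at 1.24 (0.985 to 1.57), 1.47 (0.958 to 2.29), 1.14 (0.926 to 1.41) and 1.24 (0.971 to 1.58), and each interval included 1.

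With score, type I interferon, S phase, G2/M and mitochondrial genes left out, the share of UMIs from each chromosome differed little between members and low-score cells. The ratios ran from 0.905 (chromosome 7) to 1.11 (chromosome 22, which holds the abundant immunoglobulin lambda genes).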
